A study of Mus musculus with 6 samples.

Results

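The genes described here are the forkhead transcription factor genes *Foxc1* and *Foxc2* and 8 genes typical of the fibroblasts that cover brain and vessels: *Aldh1a2*, *Dcn*, *Lum*, *Ogn*, *Pdgfra*, *Slc6a13*, *Igf2* and *Igfbp2*. They are 10 of the 23183 gene symbols measured in brain microvessels of TEKCRIF1 mice. *Foxc2* was selected on these same measurements, for its lower FPKM in the knockout (KO) mice, so its values are a description and carry no test. The question was whether its paralog *Foxc1* and the fibroblast genes had the same pattern. WT mice were TEK-cre with *Crif1*+/+ and KO mice were TEK-cre with *Crif1* flox/flox, so all 6 mice carried the Cre recombinase. Tek, a receptor of endothelial cells, gives the promoter that drives this Cre, and *Crif1* (*Gadd45gip1*) encodes a protein of the mitochondrial ribosome. The mice were C57BL/6, untreated, and their age at collection was not given in the sources used here. Each group had 3 mice, and each mouse gave 1 library of RNA from isolated cerebral microvessels.

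The meninges are the connective tissue sheets around the brain, and their fibroblasts follow arteries and veins into the tissue. Foxc1 and Foxc2 are closely related DNA-binding proteins of the mesenchyme that forms the meninges, and both are also made in vessel walls. Fibroblasts of the meninges lay down collagens and small leucine-rich proteoglycans, make retinoic acid and insulin-like growth factors, and carry solute transporters. An endothelial Cre is not directed at these cells, and a preparation of vessels can carry some of them along.

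Both forkhead genes have a single exon. In GRCm38 (GENCODE M21), *Foxc1* lies on the plus strand at chr13:31806633-31812476 and *Foxc2* on the plus strand at chr8:121116171-121118895. *Aldh1a2*, with 14 exons, lies at chr9:71215789-71296243, and *Ogn*, with 7 exons, at chr13:49608046-49624501, both on the plus strand. RefSeq promoter windows (GRCm38.p6), which run from 250 bases before to 50 bases after a start, were at hand for 7 of the 10 genes, 13 windows in all, and not for *Foxc2*, *Dcn* or *Lum*. The stretches from 250 to 51 bases before the start are printed for *Foxc1*, the paralog asked about, for *Aldh1a2*, the tested gene whose groups did not overlap, and for *Ogn*, whose groups did. They were picked after the values were seen. Each is written 5′ to 3′ with every CpG dinucleotide in capitals.
Foxc1, chr13:31806396-31806595, plus strand: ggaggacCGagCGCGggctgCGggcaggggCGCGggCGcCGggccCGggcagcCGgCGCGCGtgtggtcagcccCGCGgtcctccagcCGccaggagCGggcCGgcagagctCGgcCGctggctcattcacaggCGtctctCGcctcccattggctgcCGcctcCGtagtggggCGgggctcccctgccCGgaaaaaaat
Aldh1a2, chr9:71215539-71215738, plus strand: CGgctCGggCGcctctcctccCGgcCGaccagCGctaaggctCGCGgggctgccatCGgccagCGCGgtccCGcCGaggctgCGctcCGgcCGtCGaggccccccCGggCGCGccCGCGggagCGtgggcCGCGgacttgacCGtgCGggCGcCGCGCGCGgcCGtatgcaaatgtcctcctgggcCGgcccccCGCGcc
Ogn, chr13:49607765-49607964, plus strand: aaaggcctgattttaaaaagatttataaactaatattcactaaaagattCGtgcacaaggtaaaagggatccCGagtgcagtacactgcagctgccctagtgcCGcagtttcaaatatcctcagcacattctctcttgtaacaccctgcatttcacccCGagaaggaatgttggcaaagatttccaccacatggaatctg

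The printed stretches differed widely in base composition. That of *Aldh1a2* held 36 CpG dinucleotides and 81.5% G and C, that of *Foxc1* held 26 and 76.5%, and that of *Ogn* held 4 and 42.5%. Over the whole windows of 300 bases, *Aldh1a2* had 50 CpG dinucleotides (percentile 99.3 of 32851 windows), *Foxc1* had 32 (percentile 91.4) and *Ogn* had 4 (percentile 38.0), against a median of 7. The letters GTAAACA, a core bound by forkhead proteins, were found on either strand in 0 of the 13 windows and in 3.65% of all windows. A TATAAA was found in 1 of the 13, that of *Ogn*, and in 13.6% of all windows. A CCAAT was found in 5 windows, of *Aldh1a2*, *Foxc1*, *Igf2* and *Slc6a13*, and in 37.4% of all windows. A match of letters is a description and not a binding site, and its absence says nothing about Foxc1 or Foxc2.

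The values were FPKM (fragments scaled by transcript length and by the mapped fragments of the library), which the authors computed from mapped reads and deposited for each library. Depth was estimated from the spacing of low FPKM values at 6400000 to 11900000 fragments per library. *Crif1*, the deleted gene, measured 18.8, 15.3 and 16.5 FPKM in the WT mice, numbered 1 to 3 in that order throughout, against 10.8, 7.54 and 10.4 FPKM in the KO mice, and no KO mouse reached a WT value. KO and WT mice were compared on log2(FPKM + 1) with limma over 14247 genes whose average reached 1 FPKM, the 10 genes included. On this scale fold changes of low genes are understated. With 3 mice against 3, an exact two-sided permutation test cannot give a p below 0.1. No gene of the 14247 passed limma's test after Benjamini-Hochberg adjustment (0.0% called), while 3.11% were lower and 2.77% higher in KO mice at an unadjusted p under 0.05. Nothing below therefore passed the adjusted threshold, and differences are given with their errors. In RNA from whole vessels, fewer cells of a type and less RNA of a gene per cell cannot be told apart.

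*Foxc2*, which acts in mesenchyme and in the vessel wall, had 31.9, 27.4 and 24.3 FPKM in the 3 WT mice. The KO mice had 14.6, 15.2 and 15.3 FPKM. The lowest WT mouse lay well above the highest KO mouse, and the KO mice were nearly alike. The means were 27.9 ± 3.79 (SD, n = 3) and 15.0 ± 0.403 FPKM (SD, n = 3), a WT level 1.86 times that of KO mice and a log2 fold change of −0.84 (SE 0.19). Between an estimated 260 and 980 fragments lay behind each of these values, so that counting error was at most 6.16% of a value.

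*Foxc1* did not show the same separation. WT mice had 47.3, 45.8 and 37.1 FPKM and KO mice 48.3, 31.9 and 26.0 FPKM. The highest *Foxc1* value of all 6 mice was that of KO 1, while KO 2 and KO 3 lay below every WT mouse. The log2 fold change was −0.33 (SE 0.25, 95% interval −0.88 to 0.23, limma p = 0.218, adjusted p = 0.877, exact permutation p = 0.4). Without KO 1 it was −0.57, under an unadjusted limma p of 0.05 (adjusted p = 1.0). Leaving out any other single library gave −0.43 (without WT 3) to −0.13 (without KO 3), none of them under that p. The ratio of *Foxc2* to *Foxc1* FPKM in the same library was 0.674, 0.598 and 0.656 in WT mice and 0.301, 0.478 and 0.587 in KO mice, with the ratio of KO 3 just under the lowest WT ratio. Because *Foxc2* was selected on its values, this ratio has no test.

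Other transcription factor genes of the meninges and the forkhead family were close to balanced. Of the 23 tested besides *Foxc1* and *Foxc2*, 13 had lower and 10 higher fitted values in KO mice, with a median log2 fold change of −0.09 against −0.01 over all genes. The groups separated in 0 of the 23, where 5.7% of all genes were lower and 5.37% higher in every KO mouse. *Zic2*, a zinc finger gene of the meninges, had a mean of 58.6 ± 14.1 FPKM (SD, n = 3) in WT and 51.6 ± 5.83 FPKM (SD, n = 3) in KO mice (log2 fold change −0.15, SE 0.23). *Zic1*, a related zinc finger gene, differed by −0.09 (SE 0.22). *Osr1*, which marks several kinds of fibroblast precursor, was the 1 gene of the 23 lower at an unadjusted p under 0.05 (3.11% of all genes).

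**Figure D1:**
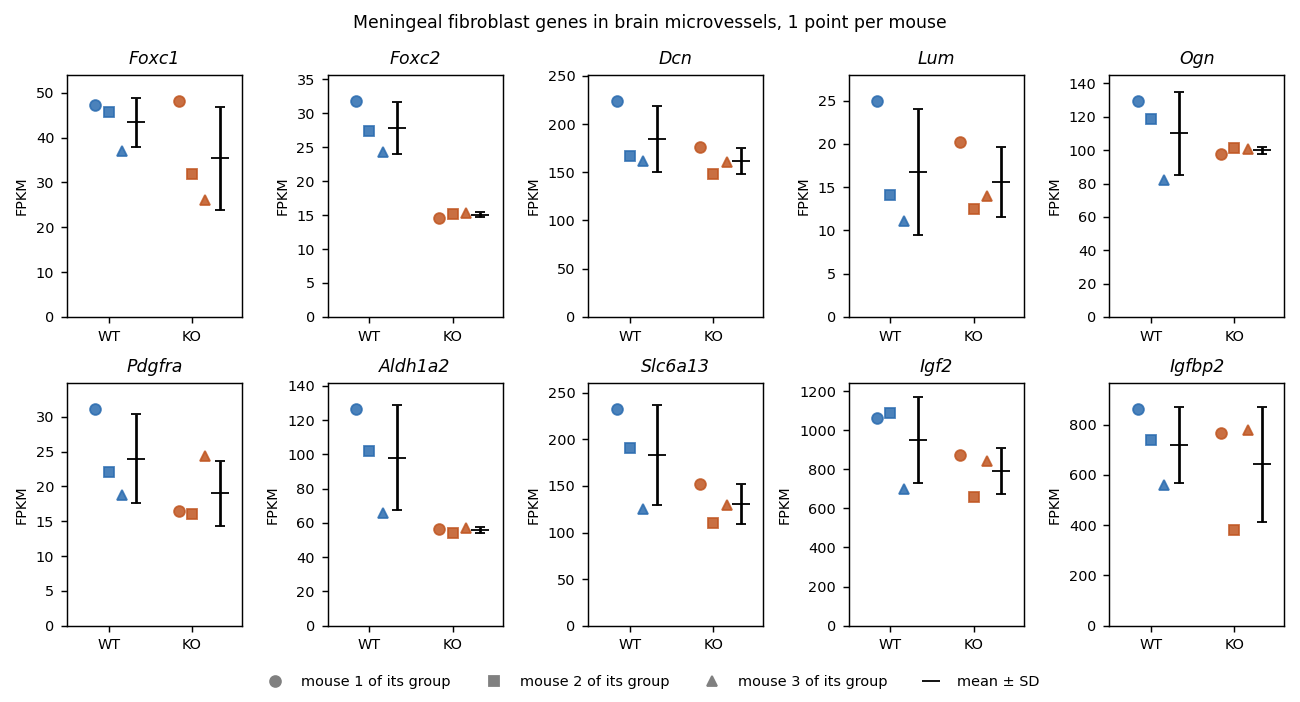
FPKM (y axis, starting at 0, with a scale of its own in each panel) of the 10 genes in each of 3 WT and 3 KO mice; each point is 1 mouse, its shape gives the replicate number, and bars show the mean ± SD. The groups are apart for *Foxc2* (24.3 to 31.9 against 14.6 to 15.3 FPKM) and *Aldh1a2* (65.5 to 126.3 against 53.9 to 57.0 FPKM) and overlap for the other 8.

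*Aldh1a2*, which encodes the retinaldehyde dehydrogenase that makes retinoic acid in the meninges, was the 1 tested gene of the 9 that was lower in every KO mouse. WT mice had 126.3, 102.1 and 65.5 FPKM and KO mice 56.5, 53.9 and 57.0 FPKM. WT mice were spread widely, with WT 3 much nearer to the KO mice than to WT 1, and the KO mice were again nearly alike. The means were 97.9 ± 30.6 (SD, n = 3) and 55.8 ± 1.63 FPKM (SD, n = 3), so that the WT mean was 1.76 times the KO mean. The log2 fold change was −0.75 (SE 0.25, 95% interval −1.31 to −0.20), with a limma p = 0.0129, an adjusted p = 0.841 and an exact permutation p = 0.1, the smallest possible. Without WT 1 it was −0.54 and no longer under an unadjusted limma p of 0.05 (adjusted p = 0.963).

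The retinoic acid list also holds binding proteins, receptors and the enzymes that break retinoic acid down. Of 14 other genes tested, 11 were fitted lower and 3 higher in KO mice, with a median of −0.25, and 2 of the 14 were lower at an unadjusted p under 0.05 (50.8% of all genes were fitted lower and 3.11% were lower at that p). *Crabp2*, a carrier that brings retinoic acid to its receptors in the nucleus, was 1 of them. It had 114.8, 108.2 and 60.3 FPKM in WT mice and 52.7, 49.9 and 54.8 FPKM in KO mice, a log2 fold change of −0.78 (SE 0.26, limma p = 0.0124, adjusted p = 0.841, exact permutation p = 0.1). The 6 mice stood in the same order as for *Aldh1a2*, with WT 3 just above the KO mice. The other was *Rbp4*, a retinol carrier of plasma that choroid plexus also makes, whose groups overlapped.

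The proteoglycan genes *Dcn*, *Lum* and *Ogn*, whose products coat collagen fibrils, overlapped between the groups. Decorin (*Dcn*) had 224.4, 166.9 and 162.1 FPKM in WT and 176.0, 148.4 and 160.8 FPKM in KO mice, and KO 1 lay above WT 2 and WT 3. Its log2 fold change was −0.18 (SE 0.22, 95% interval −0.66 to 0.31, limma p = 0.435, adjusted p = 0.936, exact permutation p = 0.4). Lumican (*Lum*), the lowest of the 10 genes, had 25.0, 14.1 and 11.1 FPKM in WT and 20.2, 12.5 and 14.0 FPKM in KO mice. WT 1 and KO 1 stood above the other 4 mice, and WT 3 was the lowest of all. The log2 fold change of *Lum* was −0.05 (SE 0.30, 95% interval −0.73 to 0.63, limma p = 0.876, adjusted p = 0.991, exact permutation p = 0.8), and without WT 1 it was 0.27. Osteoglycin (*Ogn*) had 129.8, 118.6 and 82.0 FPKM in WT and 97.6, 101.4 and 101.0 FPKM in KO mice. All KO mice lay between WT 3 and WT 2, and the log2 fold change was −0.11 (SE 0.22, 95% interval −0.60 to 0.38, limma p = 0.627, adjusted p = 0.962, exact permutation p = 0.5).

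Of 6 further small leucine-rich proteoglycan genes tested, 3 were fitted lower and 3 higher in KO mice. Fibromodulin (*Fmod*), which shapes collagen fibrils, was the most abundant with 343.2, 303.5 and 163.9 FPKM in WT and 165.5, 130.4 and 180.7 FPKM in KO mice. Its log2 fold change was −0.71 (SE 0.30, limma p = 0.0388, adjusted p = 0.841, exact permutation p = 0.3), with WT 3 inside the range of the KO mice.

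Most collagens and other matrix genes of fibroblasts had lower fitted values in KO mice. In the fibroblast list of matrix and surface genes, 30 were tested besides the members, 25 were fitted lower and 5 higher, and the median log2 fold change was −0.36 (−0.21 without WT 1 and −0.24 without KO 2). Of these 30, 9 were lower at an unadjusted p under 0.05 (3.11% of all genes), and in 9 every KO mouse lay below every WT mouse (5.7% of all genes). The count at an unadjusted p under 0.05 was 3 without WT 1 (2.45% of all genes), 3 without WT 2 (1.42%) and 5 without KO 1 (2.15%). It was 5 with a correction of each library for GC content (2.22% of all genes). In 1 gene, *Fap*, a protease of activated fibroblasts, every KO mouse was higher (5.37% of all genes), with a log2 fold change of 0.89 (SE 0.28, limma p = 0.00963, adjusted p = 0.841, exact permutation p = 0.1). After the GC correction 0 of the 30 genes had every KO mouse higher (4.36% of all genes).

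The collagen VI genes, whose chains form beaded filaments around cells, were among those 9. *Col6a2* had 147.1, 170.7 and 91.6 FPKM in WT and 74.2, 56.2 and 79.5 FPKM in KO mice, a log2 fold change of −0.92 (SE 0.26, limma p = 0.0059, adjusted p = 0.841, exact permutation p = 0.1). *Col6a1* differed by −0.78 (SE 0.26) and *Col6a3* by −0.73 (SE 0.22), so that all 3 listed collagen VI genes were separated. *Col1a1*, the main chain of collagen I, had 811.6, 765.5 and 576.9 FPKM in WT and 480.6, 286.1 and 454.0 FPKM in KO mice, a log2 fold change of −0.84 (SE 0.29, limma p = 0.0156, adjusted p = 0.841, exact permutation p = 0.1). *Fbln1*, which encodes the matrix protein fibulin, differed by −0.74 (SE 0.23) and *Col15a1*, a collagen of basement membrane zones, by −0.45 (SE 0.20). WT 3 was the lowest WT mouse in each of these, next to the KO mice.

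*Pdgfra*, the receptor for platelet-derived growth factor on fibroblasts, had 31.1, 22.1 and 18.8 FPKM in WT mice. KO mice had 16.5, 16.1 and 24.4 FPKM, with KO 3 above WT 2 and WT 3. The log2 fold change was −0.32 (SE 0.25, 95% interval −0.88 to 0.24, limma p = 0.235, adjusted p = 0.881, exact permutation p = 0.4). This receptor is also a marker of oligodendrocyte precursors. The summed FPKM of 12 other genes of these precursors was 129.4, 145.0 and 161.2 in WT and 106.4, 128.5 and 94.0 in KO mice (exact permutation p = 0.1), lowest in KO 3 where *Pdgfra* was highest among KO mice. The groups were barely apart in this sum, and in the mean log2 level of the 11 tested genes they overlapped (exact permutation p = 0.2). Of these 11 genes, 2 were lower in every KO mouse (5.7% of all genes). They were *C1ql1* (log2 fold change −0.88, SE 0.26) and *Cspg4* (−0.49, SE 0.20), which pericytes also express. The part of oligodendrocyte precursors in the *Pdgfra* values was not tested. Of the 6 other genes of the platelet-derived growth factor family, 3 were fitted lower and 3 higher. In 2 of the 6, *Pdgfb* (log2 fold change −0.34) and *Pdgfrb*, every KO mouse lay below every WT mouse (5.7% of all genes). The ligand gene *Pdgfa* overlapped between the groups (log2 fold change 0.18, SE 0.20). *Pdgfrb*, the receptor of mural cells, had 45.5, 45.6 and 36.9 FPKM in WT and 32.3, 30.8 and 33.6 FPKM in KO mice, which did not overlap (log2 fold change −0.39, SE 0.19, limma p = 0.0641, adjusted p = 0.841, exact permutation p = 0.1).

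*Slc6a13* encodes a transporter of GABA and taurine (GAT2) found in leptomeningeal cells. It had 232.3, 190.6 and 125.7 FPKM in WT and 152.6, 110.2 and 129.7 FPKM in KO mice. WT 1 and WT 2 lay above every KO mouse and WT 3 within their range. The log2 fold change was −0.45 (SE 0.26, 95% interval −1.03 to 0.14, limma p = 0.12, adjusted p = 0.843, exact permutation p = 0.3), and without WT 3 it was −0.69, under an unadjusted limma p of 0.05 (adjusted p = 0.968). Each other library left out in turn gave −0.56 (without KO 1) to −0.25 (without WT 1), none of them under that p. Of the 19 other genes of the arachnoid and leptomeningeal transporter list, 17 were fitted lower in KO mice and 2 higher, with a median of −0.41. At an unadjusted p under 0.05, 4 were lower (3.11% of all genes) and 2 higher (2.77%), and 50.8% of all genes were fitted lower.

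The largest difference of that list was in *Slc6a12*, the betaine and GABA transporter gene next in kind to *Slc6a13*. It had 50.4, 46.4 and 23.2 FPKM in WT and 15.1, 10.1 and 17.1 FPKM in KO mice, so that the WT mean was 2.84 times the KO mean (log2 fold change −1.40, SE 0.31, limma p = 0.00119, adjusted p = 0.841, exact permutation p = 0.1). *Slc13a3*, a transporter of dicarboxylates, had 167.1, 135.5 and 73.8 FPKM in WT and 67.6, 47.7 and 72.9 FPKM in KO mice, where WT 3 exceeded KO 3 only slightly (log2 fold change −0.93, SE 0.31). *Cdh1*, the cadherin of the arachnoid barrier, differed by −0.73 (SE 0.26). *Moxd1*, a monooxygenase-like gene, was higher in every KO mouse (log2 fold change 0.55, SE 0.24, limma p = 0.0471, adjusted p = 0.841, exact permutation p = 0.1).

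*Igf2*, an imprinted growth factor gene, and *Igfbp2*, which encodes a binding protein for insulin-like growth factors, were the most abundant of the 10 genes. *Igf2* had 1065, 1090 and 698.0 FPKM in WT and 873.3, 659.6 and 842.4 FPKM in KO mice. WT 3 lay between KO 2 and KO 3, and the log2 fold change was −0.25 (SE 0.29, 95% interval −0.90 to 0.41, limma p = 0.424, adjusted p = 0.932, exact permutation p = 0.3). *Igfbp2* had 860.7, 738.8 and 559.4 FPKM in WT and 765.5, 378.8 and 779.1 FPKM in KO mice. KO 1 and KO 3 exceeded WT 2, and KO 2 was far below the other 5 mice. The log2 fold change of *Igfbp2* was −0.22 (SE 0.34, 95% interval −0.98 to 0.54, limma p = 0.537, adjusted p = 0.949, exact permutation p = 0.7), and without KO 2 it was 0.12. The ratio of *Igfbp2* to *Igf2* FPKM averaged 0.763 ± 0.0735 (SD, n = 3) in WT and 0.792 ± 0.190 (SD, n = 3) in KO mice (exact permutation p = 0.8).

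Of 13 further genes of the insulin-like growth factor pathway, 9 were fitted lower and 4 higher in KO mice, with a median of −0.15. Over all genes, 50.8% were fitted lower. At an unadjusted p under 0.05, 2 of the 13 were lower (3.11% of all genes). *Igfbp5*, another binding protein gene, was the 1 of them whose groups were apart (5.7% of all genes were lower in every KO mouse). It had 92.6, 84.2 and 132.0 FPKM in WT and 51.6, 63.4 and 61.8 FPKM in KO mice (log2 fold change −0.77, SE 0.22, limma p = 0.00619, adjusted p = 0.841, exact permutation p = 0.1). Unlike the fibroblast genes above, it was highest in WT 3.

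**Figure D2:**
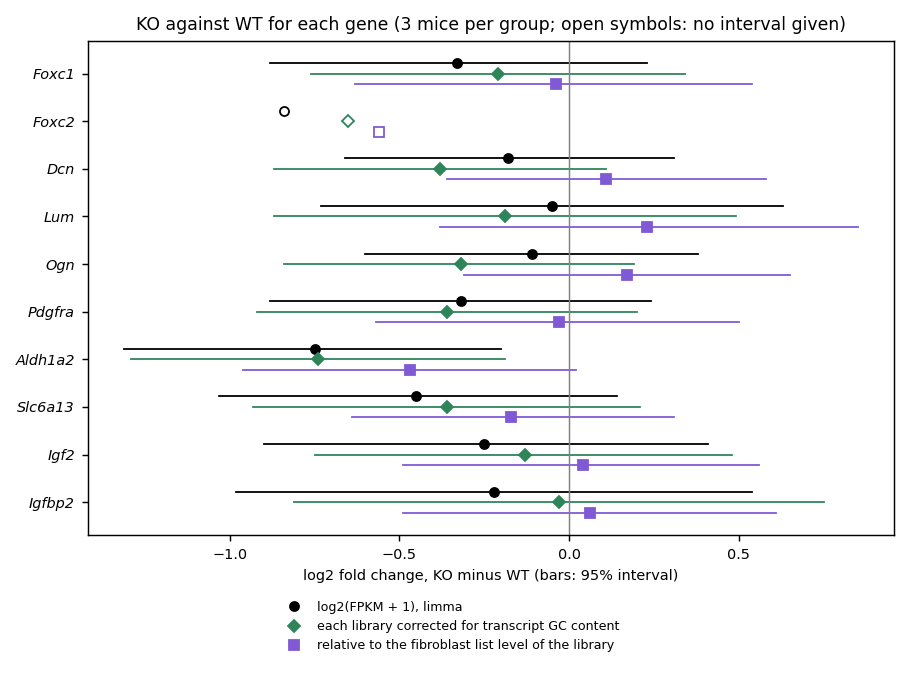
Log2 fold change (x axis, KO minus WT, on log2(FPKM + 1)) of the 10 genes, as fitted and with each library corrected for GC content or set relative to its fibroblast list level; bars are 95% intervals, and *Foxc2* is drawn open with no interval. As fitted, all 10 lie below 0, and *Aldh1a2* is the 1 tested gene whose interval (−1.31 to −0.20) leaves out 0.

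Besides *Foxc2*, which was selected for its fall, all 9 genes were fitted lower in KO mice. Of the 14247 genes, 50.8% were. Lists of other cells leaned to either side. Fitted lower were 8 of 8 astrocyte, 7 of 8 microglia and macrophage and 10 of 12 pericyte genes. Of 15 choroid plexus genes 0 were, and of 7 arterial smooth muscle genes 1 was. Without *Foxc2*, the median log2 fold change of the 9 was −0.25, and it was −0.12 without WT 1, −0.12 without KO 2 and −0.43 without WT 3. At an unadjusted p under 0.05, 1 of the 9 was lower (3.11% of all genes) and 0 were higher (2.77%). In 1 of the 9 every KO mouse was below every WT mouse (5.7% of all genes), and in 0 every KO mouse was above (5.37%). The order of the WT mice was much the same from gene to gene, with WT 1 above WT 2 above WT 3 for 9 of the 10. The order of the KO mice varied between genes. WT 1 was the highest of all 6 mice for 8 genes, WT 3 was the lowest WT mouse for all 10, and KO 2 was the lowest of all mice for 6. WT 3 lay inside the range of the KO mice for 6 genes, and at or below the highest KO value for 8, the exceptions being *Foxc2* and *Aldh1a2*. For 7 of the 9 genes, all but *Foxc1* and *Aldh1a2*, the difference between the group means was smaller than the SD of the WT mice.

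**Figure D3:**
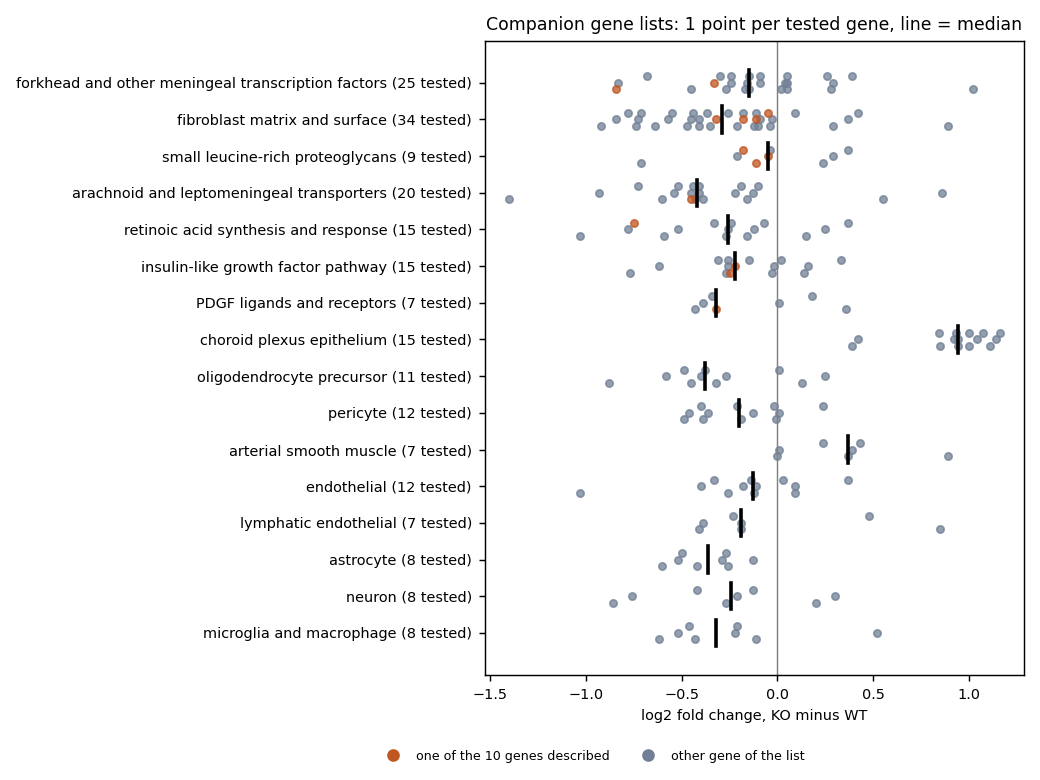
Log2 fold change (x axis, KO minus WT) of every tested gene in the 16 companion lists; each point is 1 gene, orange points are the 10 genes described and the black line is the median of the list. The medians of the fibroblast list (−0.29 with members) and the transporter list (−0.42 with members) lie below 0, and all 15 choroid plexus genes lie above it, with a median of 0.94.

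The fibroblast list itself had the same falling order of the WT mice. Its mean level over the 30 tested non-member genes was 57.1, 50.1 and 40.3 FPKM in WT and 42.6, 32.6 and 45.6 FPKM in KO mice (exact permutation p = 0.3), with WT 3 inside the KO range. When each library was set relative to this level, which moved the median of all genes to 0.28, the median of the 9 genes was 0.04. *Dcn*, *Lum*, *Ogn*, *Igf2* and *Igfbp2* then had positive values between 0.04 and 0.23, all below that median of all genes. On this scale *Foxc2* was −0.56 and still apart, *Foxc1* was −0.04 (limma adjusted p = 0.962), and *Aldh1a2* was −0.47 with overlapping groups (limma adjusted p = 0.572).

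Ratios within a library compare genes without any scaling. The ratio of *Aldh1a2* to *Slc6a13* FPKM was 0.544, 0.535 and 0.521 in WT and 0.370, 0.489 and 0.439 in KO mice, so that WT mice were nearly alike and every KO mouse was lower (exact permutation p = 0.1). The ratio of *Aldh1a2* to *Dcn* averaged 0.526 ± 0.109 (SD, n = 3) in WT and 0.346 ± 0.0225 (SD, n = 3) in KO mice (exact permutation p = 0.1). The ratio of *Foxc1* to *Dcn* averaged 0.238 ± 0.0329 (SD, n = 3) and 0.217 ± 0.0564 (SD, n = 3), with overlapping groups (exact permutation p = 0.6). The ratio of *Foxc2* to *Dcn* was 0.142, 0.164 and 0.150 in WT and 0.0827, 0.103 and 0.0949 in KO mice, given without a test. These 4 ratios were a choice made after the values were seen.

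Markers of other cells were also unequal between the libraries. The 15 choroid plexus genes, the epithelium that makes cerebrospinal fluid and sits beside meningeal tissue, summed to 4082, 3467 and 3502 FPKM in WT and 10290, 3644 and 12490 FPKM in KO mice (exact permutation p = 0.2). The sum was high in KO 1 and KO 3 and at the WT level in KO 2, and none of the 15 genes was at 0 in any library. *Kcne2*, a potassium channel subunit gene of that epithelium, had 31.7 to 37.7 FPKM in WT mice and 94.8, 38.2 and 142.4 FPKM in KO mice. *Slc4a5*, a bicarbonate transporter gene of the same cells, had 15.5 to 16.7 FPKM in WT and 33.1, 17.7 and 66.9 FPKM in KO mice. *Igf2* and *Igfbp2* are also made by choroid plexus. Both had lower FPKM in KO 2 than in KO 1 and KO 3, as did 7 of the 10 genes in all, and the fibroblast list level was lowest in KO 2 as well. The summed FPKM of the 32 fibroblast genes besides the members was 4373, 3738 and 2826 in WT and 2944, 2028 and 2915 in KO mice (exact permutation p = 0.3), and 2 of its genes, *Dpt* and *Ccl11*, were at 0 in some libraries. The 19 transporter list genes ranged from 9907 to 18970 FPKM in WT and from 9126 to 11390 FPKM in KO mice (exact permutation p = 0.3), and *Ptgds*, a prostaglandin synthase gene, gave 92.4% of the sum. Without it the range was 820.4 to 1325 FPKM in WT and 731.6 to 939.2 FPKM in KO mice (exact permutation p = 0.2).

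Astrocyte genes summed to 684.9 to 824.2 FPKM in WT and 518.5 to 548.9 FPKM in KO mice, and microglia and macrophage genes to 156.6 to 213.6 and 123.9 to 154.9 FPKM, neither overlapping (exact permutation p = 0.1 for each). In the mean log2 level of the list, the groups overlapped for microglia and macrophage genes (exact permutation p = 0.2) and not for astrocyte genes (exact permutation p = 0.1). All 8 astrocyte genes were fitted lower (50.8% of all genes), and 3 were lower at an unadjusted p under 0.05 (3.11%). In 2 of the 8 every KO mouse was lower (5.7% of all genes). They were *Gfap*, an intermediate filament gene, and *Gja1*, a gap junction gene (log2 fold changes −0.52, SE 0.23, and −0.50, SE 0.20). Lymphatic endothelial genes, a cell type of the meninges in which *Foxc2* is active, summed to 55.6 to 72.2 FPKM in WT and 74.4 to 109.0 FPKM in KO mice (exact permutation p = 0.1), but 5 of the 7 were fitted lower and 2 higher, with a median log2 fold change of −0.19. *Pdpn*, which fibroblasts and other cells also make, gave most of that sum and had a log2 fold change of 0.85 (SE 0.26), while *Prox1*, the defining factor of lymphatic cells, was at 1.23 to 3.49 FPKM. Endothelial genes ranged from 1147 to 1592 FPKM in WT and from 1024 to 1392 FPKM in KO mice, pericyte genes from 902.3 to 1420 and from 937.8 to 1066 FPKM, neuronal genes from 209.7 to 438.6 and from 152.1 to 368.3 FPKM and arterial smooth muscle genes from 274.8 to 615.1 and from 296.2 to 822.0 FPKM, with overlapping sums. *Vtn* gave 64.9% of the pericyte sum, and 4 of the 12 pericyte genes were lower in every KO mouse (5.7% of all genes), namely *Anpep* (log2 fold change −0.46, SE 0.21), *Cspg4*, *Notch3* and *Pdgfrb*. Of the 12 endothelial genes, 8 were fitted lower and 4 higher. In every KO mouse, 1 was lower (5.7% of all genes) and 1 higher (5.37%). *Emcn*, a surface mucin gene, was higher in every KO mouse (log2 fold change 0.37), and *Cdh5*, the cadherin of endothelial junctions, was lower in every KO mouse (log2 fold change −1.03, limma p = 0.000303, adjusted p = 0.841, exact permutation p = 0.1). The part of any of these cells in the values of the 10 genes was not tested.

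**Figure D4:**
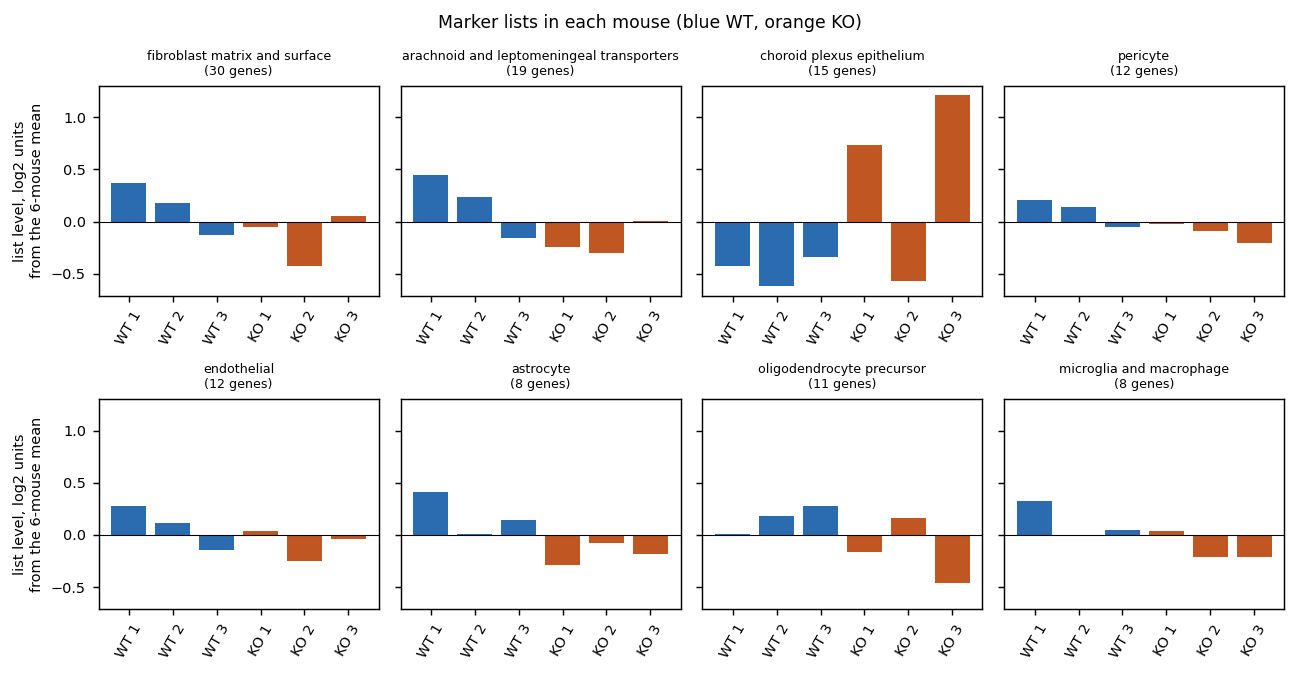
Mean level of 8 marker lists in each mouse, as the difference from the mean of all 6 mice (y axis, log2 units); each bar is 1 mouse, blue for WT and orange for KO, and members are left out of the lists. The fibroblast and transporter lists are highest in WT 1 (0.37 and 0.45), the choroid plexus list stands out in KO 1 and KO 3 (0.73 and 1.21), and the astrocyte list is higher in every WT mouse.

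The GC content of transcripts also went with the group difference. Across 13726 genes, log2 fold change and GC content had a Spearman correlation of −0.35, given as a description because genes are not independent replicates. Of 5 groups of equal size by GC content, the richest had a median log2 fold change of −0.18 and the poorest one of 0.16. *Foxc2*, with 62.0% GC, lay at percentile 98 of the tested genes, *Foxc1* with 55.9% at percentile 80.8 and *Aldh1a2* with 50.6% near the middle, at percentile 53.1. *Dcn* with 37.4%, *Ogn* with 36.3% and *Lum* with 41.9% were in the poorest group. After a correction for GC content in each library, *Foxc2* had a log2 fold change of −0.65 and its groups were still apart. *Foxc1* then had −0.21 (SE 0.25) and *Aldh1a2* −0.74 (SE 0.25, limma adjusted p = 0.998), while *Dcn* had −0.38 and its groups no longer overlapped. *Ogn* had −0.32 (SE 0.23) and *Lum* −0.19 (SE 0.30), both further below 0 than without the correction, and *Igf2* had −0.13 (SE 0.28) and *Igfbp2* −0.03 (SE 0.35), both nearer to 0.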

How the data were processed

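RNA from cerebral microvessels of 3 WT and 3 KO mice was sequenced with the NEBNext Ultra II Directional kit. The authors trimmed reads with FASTX_Trimmer and BBMap, mapped them with TopHat (build mm10 in the submitters' processing notes) and deposited the resulting FPKM, with 23183 gene symbols in each of the 6 libraries. The tool that computed FPKM and any scaling between libraries were not given in the sources used here. Because FPKM are not counts, the count model of the study was replaced by limma 3.58.1 (R 4.3.3) with a trended variance on log2(FPKM + 1), over genes averaging 1 FPKM or more, with Benjamini-Hochberg adjustment over all of them. Where a p is printed for a single gene, an exact two-sided permutation test of the FPKM values was also run. Nothing in the labels says more than that the libraries come from separate mice of a genotype, so p-values measure the spread between these libraries.

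The members and the 16 companion lists were chosen with earlier results of these data known, so their counts are descriptions. Besides the members, a gene of a list was named when its unadjusted p was under 0.05 and its groups did not overlap, and, in a list with fewer than 2 such genes, the 2 most abundant were candidates. *Osr1*, *Rbp4*, *Pdgfb*, *Prox1*, *Emcn*, *Notch3*, *Vtn*, *Ptgds*, *Dpt* and *Ccl11* were named for a count or a level. Transcript GC content came from the longest GENCODE M21 transcript for 22148 symbols and promoter sequences from RefSeq (GRCm38.p6). Depth was estimated from FPKM steps of 3075 genes with a single transcript, and depends on their annotated lengths. It limits counting error only.

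The fit was tested on simulated data for 14247 genes with 200 changed. At 1.5-fold, 108 of the 200 had an unadjusted p under 0.05 and 0 passed adjustment. At 2-fold these numbers were 168 and 0, and at 4-fold 196 and 145. Alternatives were other scalings (TMM factors, median, quantile), a pseudocount of 0.1, other filters, no variance trend, GC and length corrections (loess, span 0.3), a replicate block, leaving out each library, and, chosen after seeing the data, each library relative to its fibroblast list level. Python 3.11.15 was used for summaries.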

Additional observations from a re-analysis of the deposited data

How the results depend on the processing

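Over 18 alternatives the log2 fold change of *Foxc2* ranged from −0.93 to −0.56, a description only, since *Foxc2* was selected on these values and most alternatives cannot change the order of the mice. *Foxc1* ranged from −0.57 to −0.04, *Aldh1a2* from −1.01 to −0.47, *Slc6a13* from −0.69 to −0.17 and *Pdgfra* from −0.50 to −0.03, all below 0. Adjusted p-values of the 9 tested genes were between 0.308 and 1.0. With each library set relative to its fibroblast list level, an alternative chosen after seeing the data that moved all genes by 0.28, *Dcn* was 0.11, *Lum* 0.23, *Ogn* 0.17, *Igf2* 0.04 and *Igfbp2* 0.06, the median of the 9 was 0.04, and 0 of them were lower at an unadjusted p under 0.05 or apart. For the 30 fibroblast genes, whose own mean difference it sets to 0 by construction, it gave a median of −0.08, with 3 lower (0.288% of all genes) and 3 higher (8.63%) at an unadjusted p under 0.05 and 7 lower (0.744%) and 3 higher (14.0%) in every KO mouse. With 1 library left out, *Lum* ranged from −0.28 to 0.27 (above 0 without WT 1, KO 2 or KO 3), *Ogn* from −0.31 to 0.02 (above 0 without WT 1) and *Igfbp2* from −0.40 to 0.12 (above 0 without KO 2). Leaving out 1 library gave 0 to 2 of the 9 lower at an unadjusted p under 0.05 and 1 to 4 lower in every KO mouse. For the fibroblast genes it gave 3 to 11 lower and 1 to 3 higher at that p, 9 to 18 apart and lower and 1 to 4 apart and higher. Fewer mice overlap less often. Of all genes, 11.4% were apart and lower without WT 3 (4 of 9 and 18 of 30), and 10.1% without WT 1 and 16.3% without KO 2 were apart and higher (4 of 30 in each), with 7.31% higher at that p without KO 2 (2 of 30). Without the variance trend 5 fibroblast genes were lower at an unadjusted p under 0.05 (2.8% of all genes). With GC correction 5 were (2.22%), and with GC and length correction 5 were (2.37%). Both corrections left 0 apart and higher (4.36% and 4.85% of all genes). GC correction left 2 of the 9 genes apart and lower (5.06% of all genes). The cause of these shifts was not tested.

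Same-numbered WT and KO libraries had correlations of their deviations of 0.04, 0.03 and 0.00. The column headers carry other numbers (4, 6 and 8 for WT, 1, 2 and 6 for KO). Neither numbering is stated to pair the mice, and with 3 libraries per group these correlations cannot decide whether mice were paired. With a replicate block the median of the 9 genes stayed at −0.25. At an unadjusted p under 0.05, 1 of them and 7 fibroblast genes were lower (3.03% of all genes). With the replicate block and GC correction, 2 of the 9 were apart and lower (5.06% of all genes). Of the fibroblast genes, 4 were lower (2.11%) and 0 higher (2.92%) at an unadjusted p under 0.05, and 0 were apart and higher (4.36%). Counting error, up to 7.18% for the lowest value of *Lum*, and 3 mice per group limit small differences.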
